A study of Mus musculus with 6 samples.

Results

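The enzymes of glycolysis and of the steps that run it in reverse, with the carriers that move lactate, were compared between brown adipose tissue (BAT) of wildtype (WT) and miR-22 knockout (KO) mice. The group held 39 genes, chosen by their symbols and found on the array through the RefSeq accession of each probe, and all 39 had at least 1 probe, among 23462 genes matched in all. *Pfkm*, *Eno3*, *Pgam2* and *Fbp2* are the isoforms known from skeletal muscle and were looked at apart from the other 35. The study examined whether glycolysis in BAT depends on miR-22, and reported lower glycolytic activity without it. Besides arrays and qRT-PCR it measured the acidification rate of tissue and cells. It also used mice that lack miR-22 in fat, and siRNA against the targets it named. Total RNA of BAT from 3 male WT mice and 3 male miR-22 KO mice, all 8 weeks old, was measured with 1 mouse per array. The KO mice, obtained from the Jackson Laboratory, lack miR-22 in all cells of the body and not in fat alone. The submitters describe the BAT as flow separated, a term whose meaning could not be worked out here. Skeletal muscle RNA was present in the samples. A heat map of the study, drawn from these same 6 samples, shows 11 of the 39 genes, so the group is not independent evidence of its own direction.

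Glycolysis takes glucose to pyruvate in the cytosol, and most of its steps are carried out by alternative isoforms that different tissues prefer. Hexokinase traps glucose, phosphofructokinase commits it to breakdown, and pyruvate kinase and lactate dehydrogenase set what leaves the pathway. BAT takes up much glucose when it makes heat, and it lies against the muscles of the back and shoulder, which express isoforms of their own. The knocked-out microRNA is shown here with its seed, bases 2 to 8, in capitals, since it is the molecule that separates the groups. Both mature strands come from RefSeq (GRCm38.p6, plus strand), at chr11:75463772-75463793 for the 3p strand and chr11:75463734-75463755 for the 5p strand.
mmu-miR-22-3p: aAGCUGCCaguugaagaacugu
mmu-miR-22-5p: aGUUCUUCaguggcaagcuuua

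Values are the log2 of the background-subtracted scanner signal over the 75th percentile of its array, called the scaled log2 signal here, and they compare mice for 1 probe, not 1 probe with another. Mice are given in the order WT 1, 2, 3 and then KO 1, 2, 3. The 75th percentile of the arrays ran from 1435 to 2633 units of intensity, with the highest in KO 2 and KO 1 (2633 and 2538). The scanner software marked 4.87 to 17.1% of the spots as outliers, most on WT 3 (17.1%) and KO 1 (15.1%). The limma test took in a gene whose probe was well above background on 3 or more arrays, with 2 or more values left in WT and in KO mice once marked spots were dropped. The arrays do not measure mature miR-22. The probe of its host gene *Mir22hg* read 1.20, 1.69 and 1.22 in WT and 2.02, 2.11 and 2.23 in KO mice, and since its place relative to the deletion was not known it does not check the labels. The adjusted p of its difference was 0.108 (limma). The markers of BAT were present, with *Ucp1*, *Cidea* and the other 8 genes of the brown adipocyte list above background. WT 1 and WT 2 lay in row 1 of the slide and the other 4 arrays in row 2, so row and genotype are partly confounded.

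Of the 39 genes, 29 could be tested, 8 had too many marked spots (*Hk2*, *Pfkm*, *Pgk1*, *Bpgm*, *Ldha*, *Ldhb*, *Slc16a1* and *Pck1*), and *Hkdc1* and *Pklr* were not well above background on any array. At an unadjusted p under 0.05, the threshold of the study's methods, *Pfkl* fell and *Aldoc*, *Fbp1*, *Pfkfb4* and *Pck2* rose in KO mice. This was 1 of 29 lower, where 8.81% of all 14712 genes tested were lower, and 4 of 29 higher, where 10.0% of all genes were higher. The lower count depended on KO 3, since without that mouse it was 6 of 25 (*Gpi1*, *Pfkl*, *Pfkfb3*, *Pgam1*, *Eno1b* and *Pkm*), where 10.3% of 13315 genes were lower. None of the 29 passed after Benjamini-Hochberg adjustment over all genes, at which 0.184% of all genes were called. The median difference of the 29 genes was 0.04 on the log2 scale, against -0.03 for all genes. Every KO mouse was below every WT mouse for 4 of the 29 and above for 5. Among all 14712 genes these counts were 2533 and 2035. With marked spots kept, 37 of the 39 could be tested, *Pfkl*, *Pfkp* and *Ldha* were lower and the same 4 genes higher, against 11.1% lower and 9.47% higher among 16111 genes. The 11 genes of the heat map were all tested, and *Pfkl* was the sole one past the unadjusted threshold, where 8.81% of all genes were lower. Of the 11, 8 had a difference below 0, where 7780 of all 14712 genes were below 0. The median of the 11 was -0.39, against -0.03 for all genes. The study called its genes with other software (SAM). It reported an array of glycolytic genes lower in KO mice, and that qRT-PCR of *Hk2*, *Gpi1*, *Pfkl*, *Pfkp* and *Fbp2* in BAT bore this out. On the arrays here the difference of *Fbp2* went the other way, at 0.16 ± 0.17 (SE), within its error. That of *Hk2* was -0.13 ± 0.16 (SE) with marked spots kept, also within its error.

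**Figure D1:**
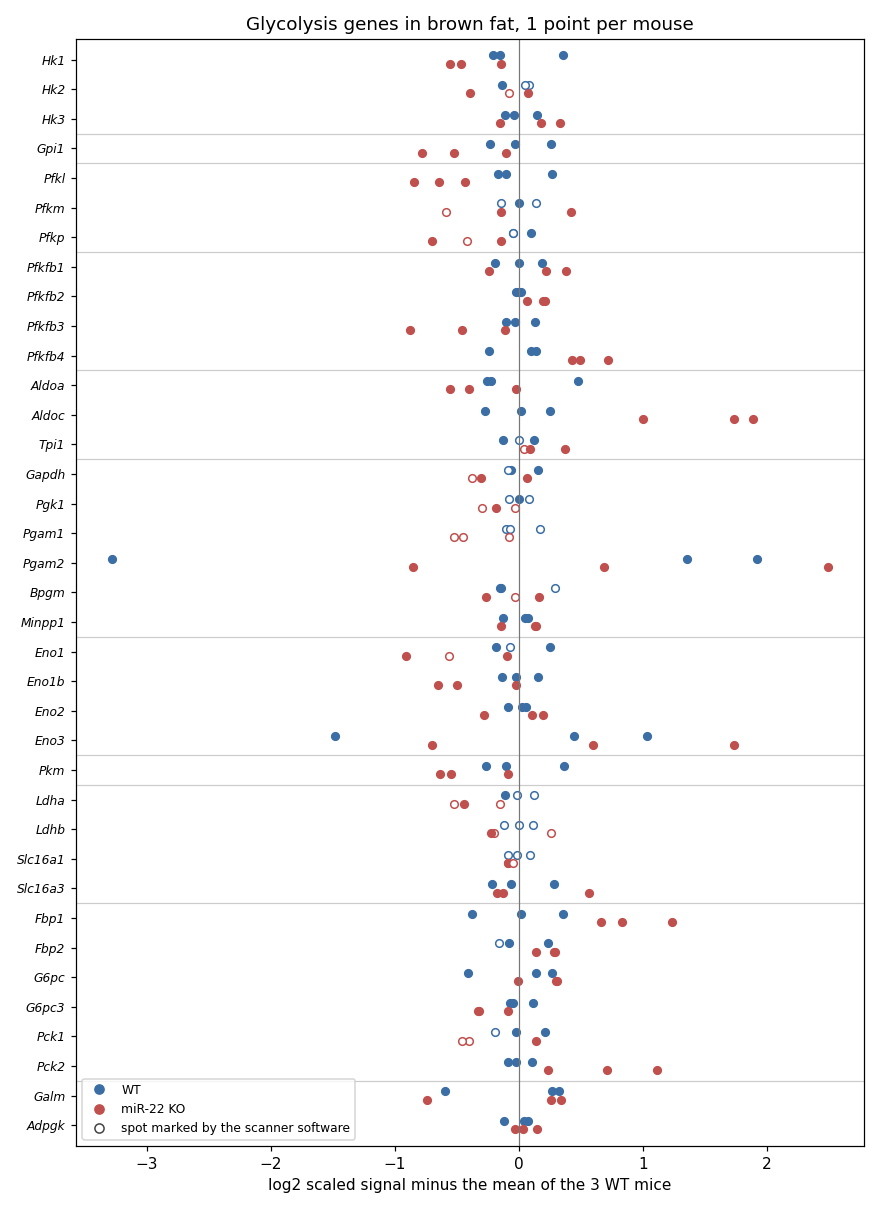
The scaled log2 signal of 37 glycolysis genes, each minus the mean of its 3 WT mice, with 1 point per mouse (WT blue, KO red) and open circles for spots that the scanner software marked. The KO points of *Aldoc*, *Fbp1*, *Pfkfb4*, *Pck2* and *Pfkfb2* lie to the right of all WT points. Those of *Pfkl*, *Pfkp*, *Pfkfb3*, *Ldha* and *G6pc3* lie to the left. With marked spots kept, every KO mouse was below every WT mouse for 2758 of all 16111 genes, and above for 1863. *Pgam2* and *Eno3* spread widest within both groups.

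The hexokinases, which phosphorylate glucose as it enters the cell, showed no change past the threshold. *Hk1*, the form made in most tissues, read 2.40, 2.97 and 2.46 in WT and 2.14, 2.05 and 2.46 in KO mice, and the groups overlapped. Its difference was -0.39 ± 0.20 (SE; limma, adjusted p = 0.350). *Hk2*, the insulin-responsive form of muscle and fat, had 3 marked spots and read 3.26, 3.47 and 3.44 in WT and 3.32, 3.00 and 3.47 in KO mice. KO 3 lay at the level of the highest WT mouse. *Hk3*, known from blood cells, differed by 0.12 ± 0.17 (SE), and *Hkdc1*, a hexokinase-like gene, was not well above background on any array. *Gpi1*, the isomerase that makes fructose-6-phosphate, read 4.21, 4.70 and 4.41 in WT and 3.66, 3.91 and 4.34 in KO mice, a difference of -0.47 ± 0.22 (SE; limma, adjusted p = 0.305). Both other probes of *Gpi1* also gave negative differences, of -0.36 and -0.21.

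The phosphofructokinases, which carry out the committed step, held the 1 gene that fell. *Pfkl*, the liver-type subunit, read 2.69, 3.12 and 2.76 in WT and 2.42, 2.01 and 2.21 in KO mice. Every KO mouse was below every WT mouse. The mean was 2.86 ± 0.23 (SD, n = 3) in WT and 2.22 ± 0.21 (SD, n = 3) in KO, 1.56-fold lower in KO mice (log2 -0.64 ± 0.18 SE; limma, adjusted p = 0.146). The call held without any 1 mouse, with a difference between -0.75 and -0.51. *Pfkp*, the platelet-type subunit, read 3.06, 3.21 and 3.07 in WT and 2.70, 2.41 and 2.97 in KO mice, with the spots of WT 3 and KO 1 marked. Its groups did not overlap, and it passed the unadjusted threshold only with the marked spots kept (-0.42 ± 0.17 SE; limma, adjusted p = 0.234, and 0.234 to 0.694 over 18 alternatives). Without the marked spots the difference was -0.45 ± 0.25 (SE). Among the arrays of row 2 alone, where WT 3 is the sole WT mouse and is taken to vary like the KO mice, *Pfkl* differed by -0.54, and no member was lower past the threshold.

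The PFKFB enzymes make and break fructose-2,6-bisphosphate, the activator of phosphofructokinase, and their isoforms went different ways. *Pfkfb4* read -1.78, -1.40 and -1.44 in WT and -1.04, -0.82 and -1.11 in KO mice. All KO mice were above all WT mice, by 0.55 ± 0.16 (SE) or 1.46-fold (limma, adjusted p = 0.158). Without any 1 mouse the difference stayed between 0.43 and 0.62, all past the unadjusted threshold. *Pfkfb3*, the isoform with the highest kinase activity, read 4.14, 4.38 and 4.21 in WT and 3.79, 3.37 and 4.13 in KO mice. Its groups did not overlap either, in the other direction, but the difference of -0.48 ± 0.21 (SE) did not pass (limma, adjusted p = 0.282). The 2 probes of *Pfkfb3* disagreed, since a dim one gave 0.86 ± 0.30 (SE), past the unadjusted threshold. The direction of *Pfkfb3* is therefore uncertain. *Pfkfb2*, known from heart, read -0.37, -0.36 and -0.34 in WT and -0.29, -0.14 and -0.16 in KO mice. Its groups did not overlap, but the difference was only 0.16 ± 0.12 (SE). A dim second probe gave 0.58 ± 0.16 (SE), past the unadjusted threshold and with all KO mice above all WT mice. *Pfkfb1*, known from liver and muscle, differed by 0.12 ± 0.20 (SE). Its second probe, with marked spots kept, differed by 0.74 ± 0.26 (SE), past the unadjusted threshold but with overlap between the groups.

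The aldolases split fructose-1,6-bisphosphate, and the brain-type *Aldoc* was the member that differed most of those tested, in size and in p. It read -1.90, -1.37 and -1.60 in WT and -0.62, 0.11 and 0.27 in KO mice. Every KO mouse lay above every WT mouse, and KO 1 was the lowest of the KO mice. The mean was -1.62 ± 0.26 (SD, n = 3) in WT and -0.08 ± 0.47 (SD, n = 3) in KO, a 2.92-fold higher signal in KO mice (log2 1.54 ± 0.27 SE; limma, adjusted p = 0.0686). A second probe, with marked spots on 3 arrays, read -2.58, -2.23 and -2.26 in WT and -1.25, -0.39 and -0.29 in KO mice. It gave 1.70 ± 0.28 (SE), close to the first. The difference was between 1.37 and 1.81 without any 1 mouse, and 1.52 within row 2 of the slide. Its adjusted p ranged from 0.0174 to 0.570 over 24 alternatives and was under 0.05 in 2 of them. The start of *Aldoc* lies 2.86 Mb from the miR-22 hairpin on chromosome 11. Within 5 Mb of the hairpin on either side, 140 genes were tested, of which 16 (11.4%) were higher and 24 (17.1%) lower in KO mice. Among all genes tested, 10.0% were higher and 8.81% lower. The window also held *Eno3*, at -4.81 Mb from the hairpin. The part of the position in the result of *Aldoc* was not tested.

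*Aldoa*, the aldolase of muscle and most tissues, read 5.39, 6.12 and 5.43 in WT and 5.10, 5.25 and 5.63 in KO mice, with overlap between the groups (-0.32 ± 0.25 SE). *Tpi1*, which interconverts the triose phosphates, differed by 0.23 ± 0.21 (SE) at its tested probe, where the spots of WT 3 and KO 1 were marked and left out. At the brightest of its 3 probes with marked spots kept, it differed by -0.00 ± 0.13 (SE). Both genes have processed copies in the genome, so a share of their signal may come from near-identical sequence.

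**Figure D2:**
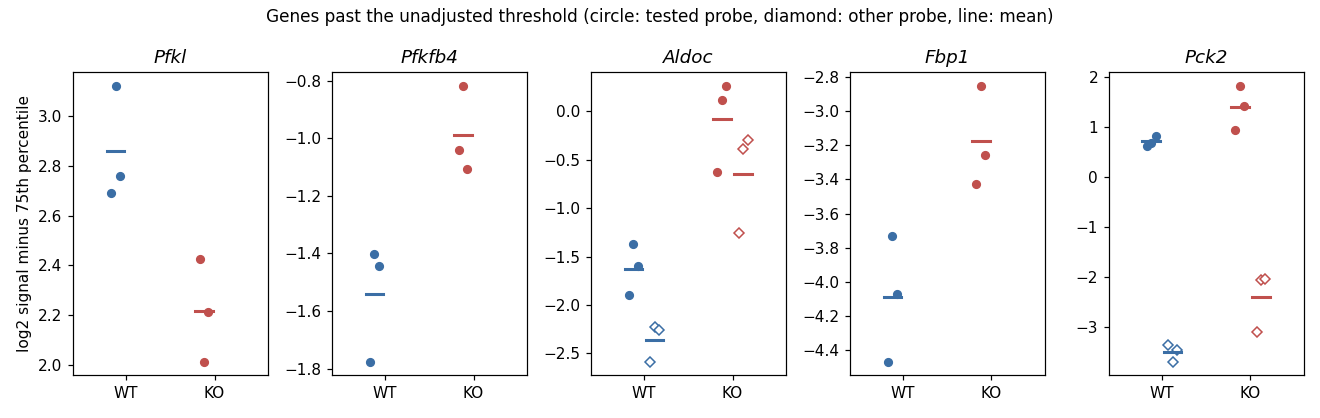
The log2 signal minus the 75th percentile of the array, in WT (blue) and KO (red) mice, for the 5 genes past the unadjusted threshold, with 1 symbol per mouse, circles for the tested probe, diamonds for another detected probe and lines for means. The groups do not overlap for any of the 7 probes, and both probes of *Aldoc* and of *Pck2* move the same way. The genes were picked by that threshold in these same data, so the separation adds no support. Among all 14712 genes tested, every KO mouse was below every WT mouse for 2533 and above for 2035.

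In the later steps, from glyceraldehyde-3-phosphate to pyruvate, no gene passed the threshold with marked spots left out. *Gapdh*, often used as a reference gene, read 5.27, 5.49 and 5.25 in WT and 4.96, 5.03 and 5.41 in KO mice, with the spots of WT 3 and KO 1 marked (-0.16 ± 0.22 SE). KO 3 fell among the WT mice. All 6 *Gapdh* probes gave differences below 0 with marked spots kept, from -0.34 to -0.09. *Pgk1*, which makes the first ATP of the pathway, had 4 marked spots and differed by -0.17 ± 0.13 (SE) with them kept. *Pgam1*, the mutase of most tissues, differed by -0.40 ± 0.21 (SE; limma, adjusted p = 0.357). It had marked spots on all 6 arrays and no unmarked value in WT 3, and with marked spots kept it differed by -0.35 ± 0.17 (SE). The second *Pgam1* probe differed by -0.49 ± 0.14 (SE; limma, adjusted p = 0.149) with marked spots kept, past the unadjusted threshold and with all KO mice below all WT mice. *Bpgm* and *Minpp1*, enzymes that make and break 2,3-bisphosphoglycerate, differed by -0.04 ± 0.18 and 0.04 ± 0.15 (SE).

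The enolases convert 2-phosphoglycerate to phosphoenolpyruvate. *Eno1*, the ubiquitous form, read 4.35, 4.78 and 4.46 in WT and 3.97, 3.62 and 4.43 in KO mice, with the spots of WT 3 and KO 1 marked. KO 3 reached the WT range, and the difference was -0.53 ± 0.34 (SE; limma, adjusted p = 0.442). At a second *Eno1* probe, with 3 marked spots kept, the signal was 3.50, 3.85 and 3.53 in WT and 3.00, 3.14 and 3.31 in KO mice. There all KO mice were below all WT mice, and the difference of -0.48 ± 0.16 (SE; limma, adjusted p = 0.192) passed the unadjusted threshold. *Eno1b*, a near-identical copy of *Eno1* whose probes may also detect it, differed by -0.39 ± 0.20 (SE). Another of its 3 probes gave -0.48 ± 0.14 (SE) with marked spots kept, past the unadjusted threshold and without overlap. *Eno2*, the neuronal enolase, was level (0.01 ± 0.17 SE). *Pkm*, the pyruvate kinase of tissues other than liver and red cells, read 4.43, 4.90 and 4.27 in WT and 3.90, 3.99 and 4.45 in KO mice (-0.42 ± 0.23 SE; limma, adjusted p = 0.359). A second *Pkm* probe gave 0.08 ± 0.19 (SE). *Pklr*, the form of liver and red cells, was not well above background on any array.

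Of the genes that make and carry lactate, *Ldha*, the subunit that favours lactate, read 4.63, 4.87 and 4.73 in WT and 4.23, 4.30 and 4.59 in KO mice. All KO mice were below all WT mice, but the spots of 4 arrays were marked, so the difference of -0.37 ± 0.15 (SE; limma, adjusted p = 0.234, and 0.234 to 0.678 over 5 alternatives) exists only with marked spots kept. A second *Ldha* probe gave 0.14 ± 0.23 (SE) with marked spots kept, and quantile normalization gave -0.09 for the first, not past the threshold. *Ldhb*, the heart-type subunit, and *Slc16a1*, the lactate carrier MCT1, each had 5 marked spots and differed by -0.06 ± 0.17 and -0.07 ± 0.12 (SE). *Slc16a3*, the carrier MCT4 of glycolytic muscle, differed by 0.09 ± 0.24 (SE).

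Among the enzymes that run the pathway in reverse, 2 rose in KO mice. *Fbp1*, the fructose bisphosphatase of liver, was dim, at -4.47, -3.73 and -4.07 in WT and -3.43, -2.85 and -3.26 in KO mice. Every KO mouse was above every WT mouse, by 0.91 ± 0.24 (SE) or 1.88-fold (limma, adjusted p = 0.132). The difference stayed between 0.72 and 1.09 without any 1 mouse. *Pck2*, the mitochondrial phosphoenolpyruvate carboxykinase, read 0.62, 0.68 and 0.82 in WT and 0.94, 1.82 and 1.42 in KO mice, with no overlap (0.69 ± 0.23 SE, 1.61-fold; limma, adjusted p = 0.195). KO 1 was close to WT 3. A second probe gave 1.11 ± 0.30 (SE). The call of *Pck2* was lost when WT 1, WT 2, KO 2 or KO 3 was left out, with the smallest difference, 0.47, without KO 2. *Pck1*, the cytosolic form, which fat uses to make glycerol-3-phosphate, had 3 marked spots and differed by -0.24 ± 0.21 (SE) with them kept. *G6pc3*, the glucose-6-phosphatase of most tissues, read 2.66, 2.84 and 2.68 in WT and 2.41, 2.40 and 2.64 in KO mice (-0.25 ± 0.14 SE; limma, adjusted p = 0.382). The KO mice were all lower, KO 3 by little. *G6pc*, the form of liver and kidney, was dim, lowest in WT 3 and KO 1, and differed by 0.20 ± 0.21 (SE). *Galm*, which readies sugars for phosphorylation, and *Adpgk*, an ADP-dependent glucokinase, differed by -0.05 ± 0.37 and 0.05 ± 0.13 (SE).

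With the row of the slide in the model, *Pfkl* (-0.54), *Pfkfb4* (0.45), *Fbp1* (0.89) and *Pck2* (0.58) kept their direction but no longer passed the unadjusted threshold, while *Aldoc* did (1.52). *Pgam2* (4.05) and *G6pc* (0.61) passed it with the row in the model but not without. As row 1 holds no KO mouse, that model sets WT 3, taken to vary like the others, against the KO mice. WT 3 was also the mouse with the lowest muscle signal and the lowest in *Pgam2* and *G6pc*. *Pck2* is known to respond to amino acid shortage through factors that bind C/EBP-ATF elements, and its promoter, 250 bases before to 50 after the start, is shown for that reason (RefSeq GRCm38.p6, chr14:55540016-55540315, plus strand). The capitals mark the match to TGATGNAA on either strand, which 3.97% of 32851 promoters held, and 2 of the 55 promoters of the members.
Pck2: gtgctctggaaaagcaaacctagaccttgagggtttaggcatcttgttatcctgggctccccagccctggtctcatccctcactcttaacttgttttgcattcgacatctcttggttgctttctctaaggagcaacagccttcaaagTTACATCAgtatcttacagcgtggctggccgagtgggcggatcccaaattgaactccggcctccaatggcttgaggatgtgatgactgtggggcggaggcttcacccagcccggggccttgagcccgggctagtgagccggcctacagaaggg

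**Figure D3:**
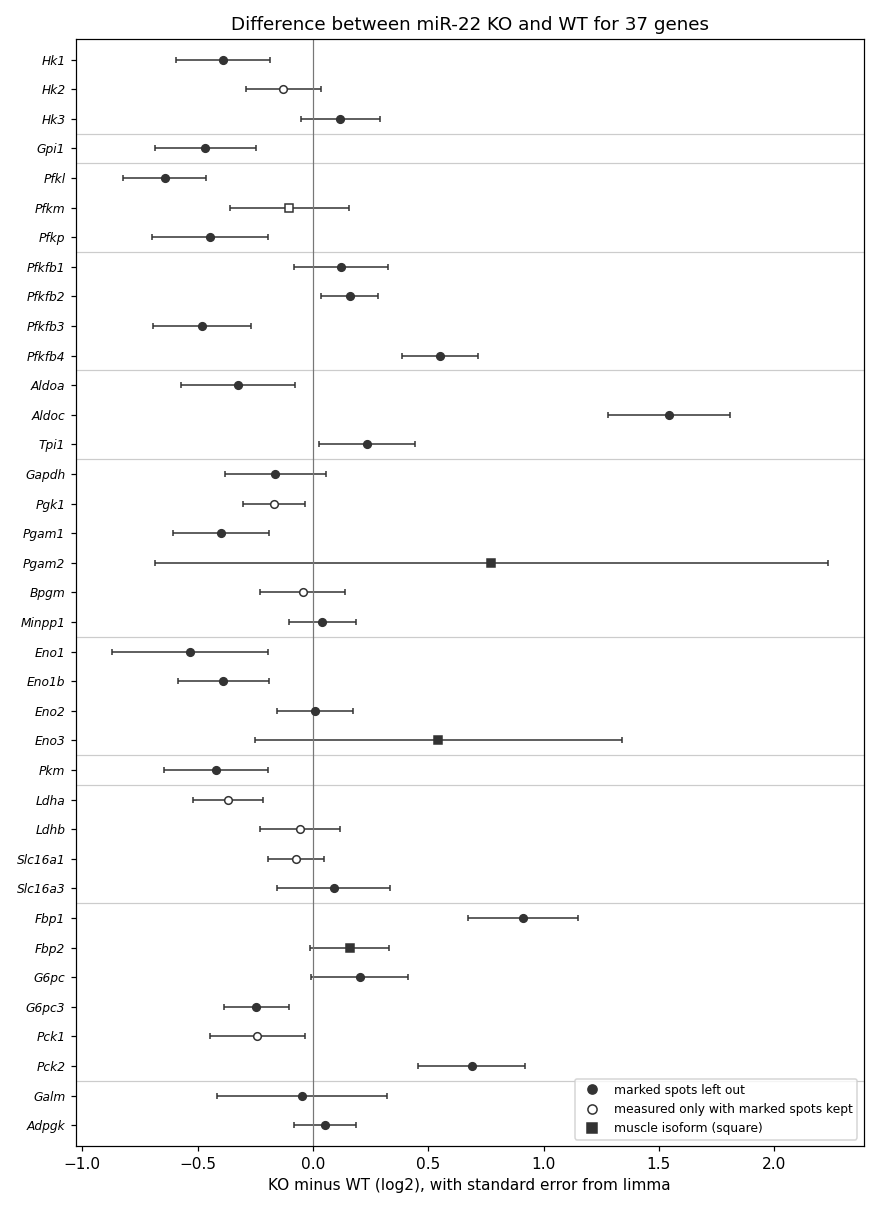
KO minus WT on the log2 scale for 37 glycolysis genes, with the standard error from limma, filled symbols for fits without marked spots, open symbols for genes measured only with them, and squares for the muscle isoforms. *Aldoc* lies farthest from 0 relative to its error, and the errors of *Pgam2* (1.46) and *Eno3* (0.80) are the widest.

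Of the 4 muscle isoforms, *Pgam2* and *Eno3* followed the order of the muscle markers over the mice or nearly so, while *Pfkm* and *Fbp2* spread less. The mean of 24 skeletal muscle markers, such as the actin *Acta1* and the creatine kinase *Ckm*, was 1.93, 1.09 and -4.61 in WT and -0.49, 3.05 and 1.03 in KO mice. WT 3 was lowest for 23 of the 24 genes and KO 2 highest for all 24. The means of the groups differed by less than their spread (KO minus WT 1.73, two-sided exact permutation p = 0.7, where 3 against 3 allows no less than 0.1), and without WT 3 the difference was -0.31. *Pgam2*, the phosphoglycerate mutase of muscle, read 3.12, 2.55 and -2.08 in WT and 0.34, 3.69 and 1.88 in KO mice. It put the 6 mice in the same order as the muscle markers. *Eno3*, the muscle enolase, read 3.10, 2.52 and 0.59 in WT and 1.37, 3.81 and 2.67 in KO mice, the same order but for WT 2 and KO 3, which changed places. Neither differed between the groups beyond its spread (0.77 ± 1.46 and 0.54 ± 0.80 SE; limma, adjusted p = 0.787 and 0.727). In a bulk sample, fewer cells of a type and less RNA per cell cannot be told apart.

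The difference of *Pgam2* changed sign with the muscle mean as a covariate, to -0.66 ± 0.18 (SE), past the unadjusted threshold, and without WT 3 it was -0.87. *G6pc*, no muscle isoform, was like the markers lowest in WT 3 and KO 1 and highest in KO 2, and its difference went from 0.20 to 0.03 with the covariate. The part of muscle RNA in these values was not tested. *Pfkm*, the muscle phosphofructokinase, read 2.48, 2.34 and 2.62 in WT and 2.33, 2.90 and 1.89 in KO mice, with 3 marked spots, and WT 3 was not low. *Fbp2*, the muscle fructose bisphosphatase, read 0.66, 0.34 and 0.26 in WT and 0.71, 0.71 and 0.57 in KO mice. It was lowest in WT 3 as the markers were, but that spot was marked and the range was 0.45 on the log2 scale. Neither passed the threshold (-0.10 ± 0.26 and 0.16 ± 0.17 SE). The value of *Fbp2* leaves out WT 3, and with marked spots kept it was 0.24 ± 0.15 (SE). The 5 genes past the threshold stayed past it with the muscle mean as a covariate, with differences of -0.63 for *Pfkl*, 0.57 for *Pfkfb4*, 1.50 for *Aldoc*, 0.88 for *Fbp1* and 0.64 for *Pck2*. With marked spots kept, the means of the other 8 marker lists, which cover adipocytes, blood, immune, endothelial and nerve cells, spanned at most 0.86 over the 6 arrays. With marked spots left out, each array averages the genes it has left, and the erythroid list spanned 5.49, the white adipocyte list 2.19 and the brown adipocyte list 1.94. The macrophage list, all 10 genes detected, ran from 0.80 to 1.05 in WT and from 1.09 to 1.39 in KO mice. Every KO mouse was above every WT mouse (two-sided exact permutation p = 0.1, the smallest that 3 against 3 allows), and with marked spots left out they overlapped (exact p = 0.3). The part of macrophage RNA in the 5 calls was not tested.

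**Figure D4:**
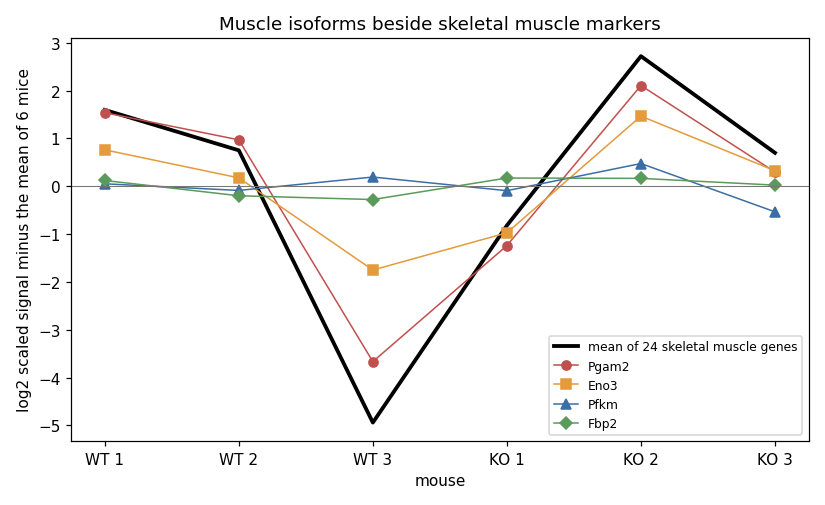
The scaled log2 signal of each mouse minus the mean of the 6 mice, for the mean of 24 skeletal muscle genes (black) and the 4 muscle isoforms, with marked spots kept. *Pgam2* and *Eno3* drop in WT 3 and peak in KO 2 with the markers, while *Pfkm* and *Fbp2* spread less over the mice.

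The promoters of *Pgam2*, *Eno3* and *Fbp2*, from 250 bases before to 50 after the start, are shown because muscle genes are known to be driven by factors that bind E-boxes. The capitals mark CANNTG, a motif that reads the same on both strands and that 72.3% of 32851 promoters held, with a median of 2 matches where present. *Pgam2* (RefSeq GRCm38.p6, chr11:5803747-5804046, minus strand) held 5 matches, *Eno3* (chr11:70656926-70657225, plus strand) 2 and *Fbp2* (chr13:62858351-62858650, minus strand) 5. The 4 promoters of *Pfkm* in the table held 3, 0, 1 and 1 matches and are not shown.
Pgam2: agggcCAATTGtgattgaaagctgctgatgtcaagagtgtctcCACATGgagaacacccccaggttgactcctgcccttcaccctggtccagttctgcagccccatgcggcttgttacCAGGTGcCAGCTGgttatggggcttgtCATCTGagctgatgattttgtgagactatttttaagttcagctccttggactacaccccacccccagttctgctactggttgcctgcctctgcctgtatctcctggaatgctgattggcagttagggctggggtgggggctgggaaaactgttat
Eno3: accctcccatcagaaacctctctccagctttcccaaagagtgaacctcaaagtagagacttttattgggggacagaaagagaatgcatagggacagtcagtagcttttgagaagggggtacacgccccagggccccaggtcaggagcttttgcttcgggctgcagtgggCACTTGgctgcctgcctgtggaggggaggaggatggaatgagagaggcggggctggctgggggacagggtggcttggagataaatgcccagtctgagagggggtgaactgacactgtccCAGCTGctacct
Fbp2: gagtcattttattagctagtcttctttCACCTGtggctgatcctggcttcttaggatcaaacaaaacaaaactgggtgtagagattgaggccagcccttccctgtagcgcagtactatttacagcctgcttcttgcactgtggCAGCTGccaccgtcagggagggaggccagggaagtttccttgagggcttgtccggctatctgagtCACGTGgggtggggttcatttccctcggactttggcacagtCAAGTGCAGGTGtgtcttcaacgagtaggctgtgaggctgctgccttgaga

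The differences of the bright enzymes lay mostly below 0, as those of bright genes did in general, and this depended on the scaling and on the marked spots. With marked spots kept, 15 members had a mean scaled log2 signal above 3. All 15 had a difference below 0, with a median of -0.28, where 9002 of all 16111 genes were below 0. *Tpi1* was level at -0.002, and its other probes differed by 0.17 and 0.36 with marked spots kept. Of the 15, 1 (*Ldha*) passed the unadjusted threshold, where 11.1% of all genes were lower. All 1617 genes that bright had a median of -0.29. After quantile normalization of the same values the median was 0.04 for the 15 members, 9 of them above 0, and -0.03 for the 1617 genes. None of the 15 then passed the unadjusted threshold (limma), where 1686 of all 16111 genes were lower and 1310 higher. With marked spots left out, 9 members were that bright, with 8 below 0 and a median of -0.40 against -0.29 for 1015 genes. After quantile normalization 6 of these 9 were below 0, with a median of -0.15 against -0.04. Of the 15, 11 were highest in WT 2, whose 75th percentile was the lowest (1435), and 14 were lowest in KO 1 or KO 2, whose percentiles were the highest. KO 3, with a percentile of 1599, lay within the WT range for *Gapdh*, *Pkm*, *Aldoa*, *Eno1* and *Gpi1*. The part of the scaling in these values was not tested. *Pfkl* (-0.46), *Aldoc* (1.50), *Pfkfb4* (0.48), *Fbp1* (0.73) and *Pck2* (0.75) kept their direction and the unadjusted threshold under quantile normalization.

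**Figure D5:**
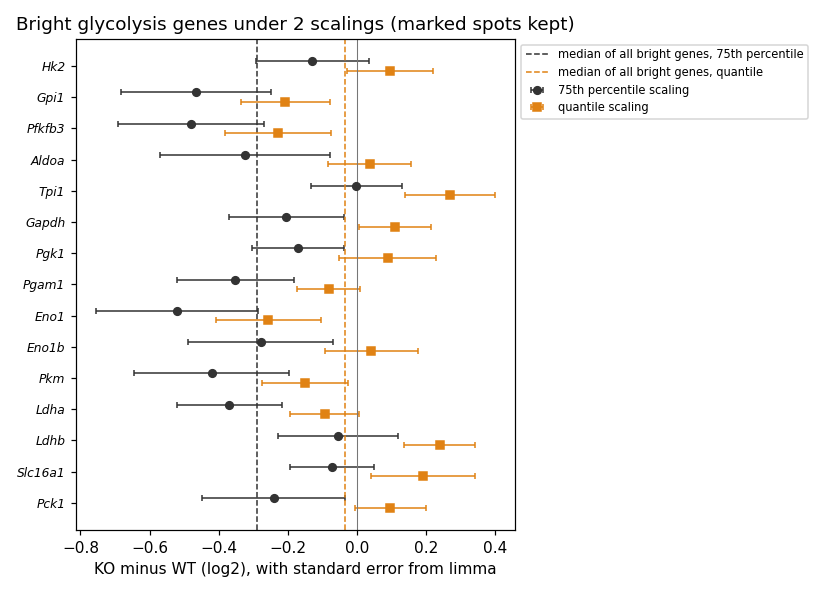
KO minus WT on the log2 scale, with standard errors from limma, for 15 bright glycolysis genes under 75th percentile scaling (black circles) and quantile normalization (orange squares), with marked spots kept. Dashed lines give the median of all 1617 genes of that brightness, -0.29 and -0.03, and the genes shift with that median.

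Around the pathway, a list of 27 genes for glucose entry and side branches was compared in the same fit, 19 of them testable, with 3 lower and 3 higher at the unadjusted threshold, where 8.81% and 10.0% of all genes were. The lower ones were *Pgm1*, a phosphoglucomutase that links glycogen to glycolysis, *Galt*, an enzyme of galactose use, and *Pdk2*, a kinase that inhibits pyruvate dehydrogenase. *Pgm1* read 3.65, 3.65 and 3.57 in WT and 2.89, 3.04 and 3.10 in KO mice (-0.61 ± 0.13 SE; limma, adjusted p = 0.0919). The groups did not overlap, and *Pgm1* was lower past the unadjusted threshold also with the row of the slide in the model (-0.56). The row ended the calls of *Galt*, *Slc2a3* and *Pdk1*, and *Pgm3* and *Pdk2* had too few unmarked values for that model. Quantile normalization ended the calls of *Galt* (-0.27) and *Pdk1* (0.31), while *Pgm1*, *Pdk2*, *Slc2a3* and *Pgm3* kept theirs. *Galt* differed by -0.44 ± 0.16 (SE) and *Pdk2* by -0.40 ± 0.14 (SE). The higher ones were *Slc2a3*, the glucose carrier of neurons, at 0.95 ± 0.28 (SE), *Pgm3*, which feeds the hexosamine branch, at 0.58 ± 0.21 (SE), and *Pdk1* at 0.39 ± 0.16 (SE). The brightest probe of *Pdk1* with marked spots kept gave -0.22, so its direction is uncertain. With marked spots kept, 26 were testable, 3 were higher (*Slc2a3*, *Pgm3* and *Pgm2*, another phosphoglucomutase) and 5 lower, including *Mpc1*, a subunit of the mitochondrial pyruvate carrier (-0.45), and *Me1*, malic enzyme (-1.01 ± 0.29 SE; limma, adjusted p = 0.138), where 9.47% of all genes were higher and 11.1% lower.

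Of 10 isoforms known from liver and testis, 4 were testable, all dim, and none passed the threshold (limma, unadjusted). Of 17 regulators of glycolytic genes, 14 were testable, with 2 lower and 2 higher, where 8.81% and 10.0% of all genes were. *Vhl*, which marks HIF for breakdown, was lower by log2 -0.40 ± 0.15 (SE), and *Esrra*, a nuclear receptor of oxidative genes, by -0.53 ± 0.20 (SE). *Egln3*, an oxygen sensor that HIF itself induces, was higher by 0.89 ± 0.22 (SE; limma, adjusted p = 0.130), with the KO 1 spot marked. *Myc*, a transcription factor that drives glycolytic genes, read -1.38, -2.72 and -2.44 in WT and -0.75, -0.86 and -0.71 in KO mice (1.40 ± 0.40 SE; limma, adjusted p = 0.164). All KO mice were above all WT mice for *Myc*, with the KO 1 spot marked. With the row of the slide in the model *Vhl* lost its call, *Egln3* and *Myc* kept theirs, and *Esrra* had too few unmarked values. Under quantile normalization *Esrra* lost its call (-0.30), while *Vhl*, *Egln3* and *Myc* kept theirs. *Hif1an*, the HIF inhibitor that the study named as a target of miR-22, read -0.68, -0.70 and -0.74 in WT and -0.50, -0.75 and -0.65 in KO mice, a difference of 0.07 ± 0.13 (SE; limma, adjusted p = 0.782). *Hif1a* differed by -0.09 ± 0.16 (SE) and *Tsc1*, also named as a target by the study, by -0.08 ± 0.15 (SE), both within their error. The study reported *Hif1an* and *Tsc1* higher in BAT of KO mice by qRT-PCR and western blot. It also examined both as targets with luciferase reporters and siRNA, whereas the arrays measure mRNA alone. *Ppargc1a*, a coactivator of mitochondrial genes, was measured only with marked spots kept and was then lower by log2 -0.59 ± 0.15 (SE; limma, adjusted p = 0.118).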

How the data were processed

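RNA of 6 BAT samples, 3 from WT and 3 from miR-22 KO mice, was hybridised singly to Agilent 1-colour arrays. The intensity values that the authors deposited come from Agilent Feature Extraction (10.7 in the labels, 11.5.1.1 in the file headers) with background subtracted and no scaling across arrays. A deposited table gives log2 values of 27497 probes, with a normalization not given in the sources used here. Its columns had medians of 8.82 to 8.85, and each followed its own array (Pearson's r across probes at least 0.9998, against at most 0.983 for other arrays).

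Signals entered as log2 after division by the array's own 75th percentile. Spots that the software flagged as non-uniform or population outliers were dropped, and a second fit kept them. RefSeq accessions (GRCm38.p6) named 33767 of 56605 probes, and the brightest testable probe stood for its gene. WT and KO mice were compared over all genes by lmFit and eBayes (limma 3.58.1, R 4.3.3), two-sided, with Benjamini-Hochberg adjustment. The threshold of the study's methods, an unadjusted p under 0.05, was used for calls, and the SAM software named there was not used here. The fit was tested on simulated data. Every member was described, and genes of the other lists were named where the unadjusted p was under 0.05, while *Hif1an*, *Hif1a* and *Tsc1* were added after their values were seen. The members, lists and tests were chosen with earlier results of these data known. The replicates are labelled as separate samples, and the p-values measure the spread between them. RefSeq promoters were found for 37 of the 39 members, 55 in all, and *Eno1b* and *Galm* had none in the table.

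The fit was repeated with quantile normalization, the median of detected probes as scale, normexp (offset 50), the deposited table, other filters on dim probes (none, or all 6 arrays), probe means, the methods' t-test, trended and robust eBayes, the slide row as a block, the muscle mean as a covariate, and each mouse left out. Chosen after seeing the data were every probe counted, row 2 alone, WT 3 and KO 1 left out together, and combinations with marked spots kept.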

Additional observations from a re-analysis of the deposited data

How the results depend on the processing

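When every probe was counted, the 4 members higher in KO mice became 8 of 42 probes, where 2112 of all 20224 were higher. With marked spots kept as well they became 9 of 62, where 2286 of 23326 were higher. Under the other alternatives the higher count was 3 to 5. The 1 lower member became 2 under scaling to the detected probes' median, normexp, the filter of all 6 arrays, and trend and robust. It was also 2 with the muscle covariate, with or without marked spots. With marked spots kept it was 3. With every probe counted and marked spots kept it was 6 of 62 probes, where 2252 of 23326 were lower. It was 0 with the row as a block, with or without marked spots. Without 1 mouse the lower count was 1 to 6, at 6 of 25 without KO 3 (10.3% of all genes), when *Gpi1*, *Pfkfb3*, *Pgam1*, *Eno1b* and *Pkm* joined *Pfkl*, and the higher count 3 to 4. After adjustment 1 member, *Aldoc*, was higher under the filter of all 6 arrays and under trend and robust, and 0 otherwise. *Pgam2* turned to -0.66 with the muscle covariate, with or without marked spots. The cause of these changes was not tested.

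Among all genes, the 1296 lower became 298 with the row as a block (496 with marked spots kept), 247 in row 2 alone (424), 635 without WT 3 and KO 1, 2252 with every probe and marked spots kept, and 716 to 1375 without 1 mouse. The 1476 higher became 894 with normexp, 777 with the row as a block (880 with marked spots kept), 654 in row 2 alone (731) and 2286 with every probe and marked spots kept. The median of all genes moved from -0.03 to 0.14 without a filter on dim probes. Over 694 values of single members under alternatives, 73 changed sign, 2 of them past the threshold. The muscle list differed by -0.31 to 2.96 without 1 mouse, and -0.31 was the value without WT 3. No paired analysis was possible because the labels give the groups no shared numbers. The 3 arrays per group limit the precision, and marked spots left 8 members without a test.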
